A study of Mus musculus with 14 samples.

Results

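Imprinted genes were followed in mouse brain lacking the insulator protein CTCF in its forebrain excitatory neurons. A list of 44 such genes was matched by symbol to the probe sets of an Affymetrix exon array, and a gene counted as measured where a probe set carried its symbol alone. By this rule 32 of the 44 were measured, each by a single probe set, out of 14860 genes measured in this way and 23332 probe sets in all. Snrpn, Meg3, Copg2 and Klf14 share a probe set with another gene, and Kcnq1ot1, Mest, Nnat, Peg10, Peg13, Slc22a3, Zim1 and Zrsr1 carried no probe set under their name, so these 12 are not analysed here.

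An imprinted gene is transcribed mainly from the copy inherited from a given parent. Most lie in clusters governed by a control region whose DNA is methylated on a single parental chromosome. CTCF binds the unmethylated copy of several of these regions. At H19/Igf2 it insulates Igf2 from enhancers that then act on H19, and binding of CTCF has also been described at control regions of Meg3/Dlk1, Kcnq1ot1, Plagl1, Grb10 and Rasgrf1. In brain, imprinted genes act in growth, neuronal migration and metabolism. The array gives the summed transcript level of a gene and cannot tell the parental alleles, or the transcripts of alternative promoters, apart.

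The tissue was cerebral cortex or hippocampus of C57BL/6 mice at postnatal day 7, all labelled male. The conditional knockout (cKO) carried floxed Ctcf alleles (fl/fl) and Cre in 1 allele of the Nex (Neurod6) locus (+/Cre), which is active in postmitotic excitatory neurons of both regions. Control mice were fl/fl as well but had no Cre (+/+). No group carried Cre with intact Ctcf, so effects of the deletion, of Cre and of the altered Neurod6 allele cannot be told apart, and other cells of the tissue kept their Ctcf alleles. The labels give 4 cKO and 4 control arrays of cortex and 3 cKO and 3 control arrays of hippocampus, called biological replicates without naming the animals, so p-values measure the spread between these arrays.

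Of the arrays labelled hippocampus, cKO 1, cKO 3 and control 2 each matched a cortex array of the same genotype (lowest Spearman correlation 0.997 over all probe sets, against a highest of 0.990 for any other pair) and had cortical levels of Prox1, the dentate granule cell factor, and of Rorb, the layer 4 factor. They were set aside, which left 1 cKO and 2 control arrays of hippocampus and 11 arrays in all. The lone cKO array of hippocampus was assumed to vary like the other groups. Signal of the Y-linked genes Eif2s3y and Kdm5d was lacking on cortex cKO 1 and 4, hippocampus cKO 2 and hippocampus control 1, against the label. Ctcf read 7.79, 7.94, 7.74 and 7.78 on the cortex cKO arrays 1 to 4, against 9.29, 9.23, 9.22 and 9.18 on the cortex control arrays (log2 change -1.42, SE 0.08, limma adjusted p = 8.42e-05). In hippocampus it read 8.31 on the cKO array and 8.95 and 9.16 on the control arrays (-0.75, SE 0.13, limma adjusted p = 0.172). All values below are log2 expression levels or differences between them, and a gene is called at an adjusted p under 0.05, over all probe sets, with a change above 1.2-fold.

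In cortex, 1 of the 32 imprinted genes was called, Plagl1, which was higher in cKO. Of all probe sets 1.95% were called, 0.591% higher and 1.36% lower, so the share among the imprinted genes, 1 of 32, is near the background. The changes were small: their median was -0.03 (all probe sets -0.02), and their median size, whatever the direction, was 0.08 (all probe sets 0.11). Positive changes were found for 13 genes and negative ones for 19, and with the arrays centred on their medians for 16 and 16. The 95% interval of the change lay within 1.5-fold in both directions for 27 of the 32 genes and within 1.2-fold for 10. Of the 17 measured genes known for expression from the paternal copy, 6 had a positive and 11 a negative change, with a median of -0.04. Of the 12 known for expression from the maternal copy, 5 were positive and 7 negative, with a median of -0.03. These classes are not particular to brain, and the 12 include Igf2r, which mouse neurons express from both copies.

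Phlda2, Asb4 and Calcr were near background, which here means that no group mean exceeded 5.29, the 90th percentile of the means of 719 olfactory receptor probe sets. Their highest group means were 4.66, 5.09 and 5.13. Phlda2 and Asb4 are best known from placenta and hypothalamus, and Calcr, the calcitonin receptor, from hypothalamus and bone.

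**Figure D1:**
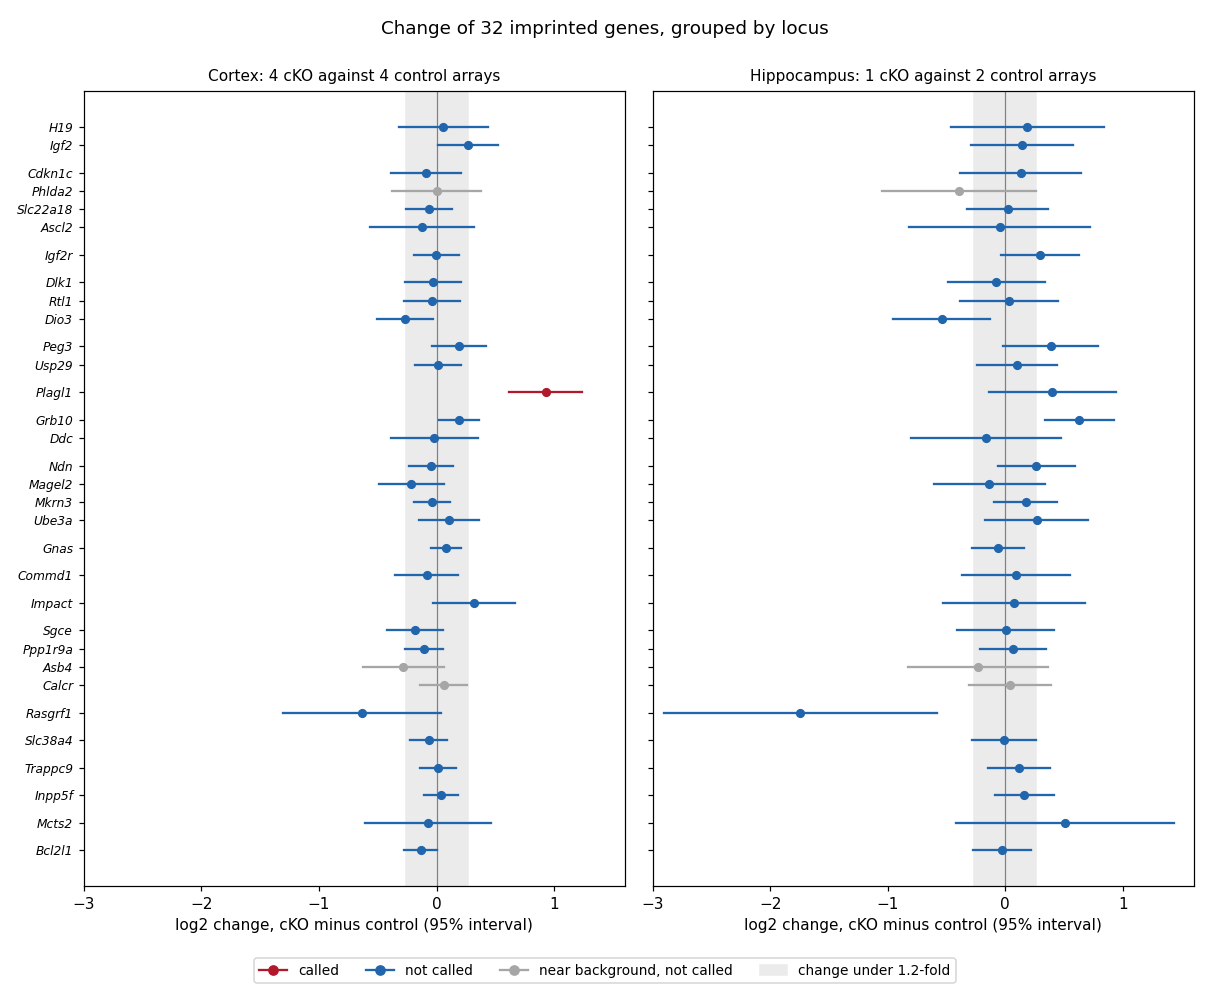
Log2 change (cKO minus control, x axis) of the 32 measured imprinted genes, grouped down the page by locus, in cortex (left) and hippocampus (right). Points are limma estimates and bars 95% intervals; the interval of Plagl1 in cortex (0.61 to 1.24) lies wholly above the grey band of changes under 1.2-fold, and no gene is called in hippocampus.

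Plagl1 (also called Zac1) encodes a zinc finger transcription factor that restrains proliferation and, in mouse, regulates other imprinted genes. It read 8.43, 8.84, 8.83 and 8.69 on the cortex cKO arrays 1 to 4, against 7.98, 7.49, 7.66 and 7.97 on the cortex control arrays. Every cKO array lay above every control array. The mean was 8.70 ± 0.19 in cKO and 7.77 ± 0.24 in control cortex (SD, n = 4 each), a 1.90-fold rise (log2 change 0.93, SE 0.14, limma adjusted p = 0.00968). Leaving out single arrays gave changes between 0.83 and 1.02, and the highest adjusted p, without cKO 2, was 0.0400. With Y-linked signal as a covariate the change was 1.03 (SE 0.15, limma adjusted p = 0.0194), in a fit that called 1.21% of all probe sets. Without the cortex arrays that lack Y-linked signal, cKO 2 and 3 against the 4 controls, it was 1.07 (SE 0.17), no longer called (limma adjusted p = 0.0866), in a fit that called 0.24% of all probe sets.

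The cell type markers of the same arrays stood as follows. The microglial list had a positive change for 12 of 12 genes, none called, against 45.4% of all probe sets with a positive change. Its median change was 0.32 (all probe sets -0.02). Its mean level was 6.83 to 7.37 on the cKO and 6.44 to 7.15 on the control arrays of cortex. Of 8 measured excitatory neuron genes 3 had a positive and 5 a negative change. Against 1.36% of all probe sets called lower, 3 of the 8 fell, the transcription factor genes Fezf2 (-1.63, SE 0.08) and Bcl11b (-0.76, SE 0.07) and Neurod6 (-1.87, SE 0.21). The mean of that list, which includes these 3 genes, lay between 9.01 and 9.09 on the cKO arrays, against 9.49 to 9.65 on the control arrays. The median change of the 8 genes was -0.26 (all probe sets -0.02). Neurod6 is also the locus that carries Cre in cKO. The part of these cell types in the change of Plagl1 was not tested. Fewer cells of a type and less RNA per cell cannot be told apart in bulk tissue.

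The promoter of Plagl1 is shown because it is the start of the member that was called. The 250 bases before its annotated start, from RefSeq (GRCm38.p6, chr10:13090582-13090831, plus strand), are given with each CG dinucleotide in capitals, the site at which imprinted promoters are methylated.
Plagl1: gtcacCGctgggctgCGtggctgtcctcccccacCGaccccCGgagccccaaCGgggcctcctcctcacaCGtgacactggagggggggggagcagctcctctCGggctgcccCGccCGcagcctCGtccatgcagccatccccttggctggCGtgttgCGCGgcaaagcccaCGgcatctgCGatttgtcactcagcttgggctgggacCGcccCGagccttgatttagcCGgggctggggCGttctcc
This stretch held 19 CG dinucleotides, a number reached by 19.7% of the 32851 promoters in the RefSeq table, whose median was 6, and its GC content was 70.4%. The core CTCF consensus, a motif of 12 positions with its degenerate positions left free, was searched on both strands. It was not found in this window. The table holds 57 promoter windows of 35 listed imprinted genes, and 0 of these held the motif, against 2.07% of all promoters. Imprinting control regions lie in part outside such windows, and methylation and CTCF binding were not measured.

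The measured genes on either side of Plagl1 on chromosome 10 were not called. Before it, Sf3b5, a splicing factor subunit gene, stood at -0.27 (SE 0.16), Utrn, which encodes the dystrophin relative utrophin, at -0.04 (SE 0.09) and Epm2a, the laforin gene, at 0.17 (SE 0.17). After it, the ribosome biogenesis gene Ltv1 stood at -0.16 (SE 0.11), the fucosidase gene Fuca2 at 0.19 (SE 0.11) and the peroxisome biogenesis gene Pex3 at 0.15 (SE 0.10). The 6 adjusted p-values from limma ran from 0.609 to 0.950. The intervals of these 6 changes all included 0.

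**Figure D2:**
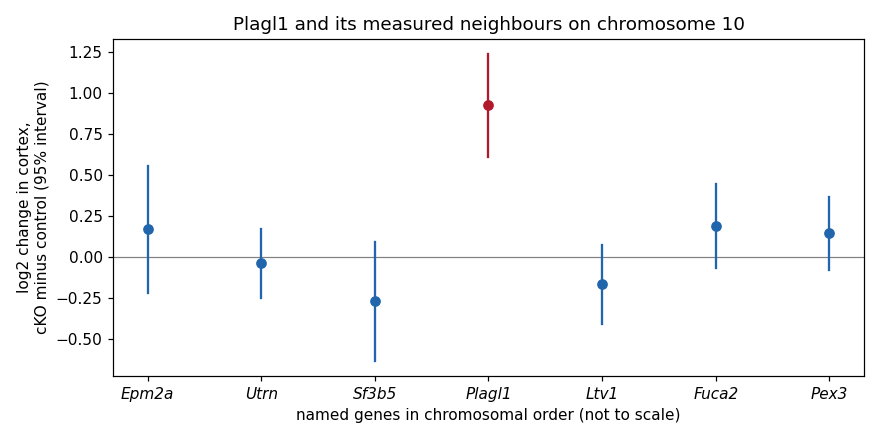
Log2 change in cortex (cKO minus control, y axis) with 95% intervals for Plagl1 (red) and the 3 nearest measured genes on each side, in RefSeq order along chromosome 10 and not to scale. Plagl1 stands at 0.93, and its neighbours lie between -0.27 and 0.19.

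At H19/Igf2, the locus for which CTCF insulation is best known, neither gene was called. Igf2, a growth factor made in this tissue chiefly by meninges, vessels and choroid plexus, read 9.33, 9.33, 9.52 and 9.41 on the cortex cKO arrays, against 9.21, 8.97, 8.93 and 9.40 on the control arrays. The highest control array overlapped the cKO arrays. The change was 0.27 (SE 0.11, limma adjusted p = 0.403). H19, a noncoding RNA from the same control region, read 7.87, 7.08, 7.41 and 7.40 on the cKO arrays, against 7.19, 7.56, 7.25 and 7.54 on the control arrays. Both the highest and the lowest H19 value belonged to cKO arrays, and the change was 0.06 (SE 0.17, 95% interval -0.32 to 0.43).

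Meninges and fibroblast markers averaged 7.35 to 7.54 on the cKO arrays and 7.18 to 7.47 on the control arrays of cortex. Of 13 measured, 9 had a positive change (45.4% of all probe sets), with a median of 0.10 (all probe sets -0.02). Aldh1a2, which encodes a retinoic acid synthesizing enzyme of the meninges, was called (0.50, SE 0.07, limma adjusted p = 0.00949). Of all probe sets 0.591% were called higher. With Y-linked signal as a covariate Aldh1a2 stayed called (0.56, SE 0.08, limma adjusted p = 0.0165). Without the cortex arrays that lack that signal it was not called (0.53, SE 0.09, limma adjusted p = 0.0948). The choroid plexus list averaged 5.19 to 5.32 on the cKO and 5.06 to 5.25 on the control arrays, with none of its 9 measured genes called. The endothelium and pericyte list had 13 negative changes among 14 measured genes, none called, with a median of -0.17 (all probe sets -0.02). Its mean lay between 7.73 and 7.84 on the cKO arrays and between 7.73 and 8.16 on the control arrays. The part of these cells in the Igf2 and H19 values was not tested.

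In the neighbouring Kcnq1ot1 domain, 4 genes were measured and none was called. Cdkn1c, the cell cycle inhibitor p57, read 8.11, 7.51, 7.70 and 7.64 on the cortex cKO arrays, against 7.76, 7.98, 7.70 and 7.88 on the control arrays (change -0.09, SE 0.13). As with H19, the highest value was that of cKO 1. Slc22a18, an organic cation transporter gene, stood at -0.06 (SE 0.09) and Ascl2, a placental transcription factor gene, at -0.12 (SE 0.20), with cortex means of 5.05 in cKO and 5.17 in control that both lie below the background guide. Igf2r, whose product clears IGF2 and which in mouse neurons is expressed from both copies, stood at -0.0023 (95% interval -0.19 to 0.19).

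Of the Dlk1-Dio3 domain, Dlk1, Rtl1 and Dio3 were measured. Dlk1, a transmembrane relative of Notch ligands, averaged 6.19 ± 0.11 in cKO and 6.22 ± 0.18 in control cortex (SD, n = 4 each), and Rtl1, a retrotransposon-derived gene, 6.56 ± 0.11 and 6.59 ± 0.13. Neither change, -0.03 (SE 0.11) and -0.04 (SE 0.11), exceeded its error. Dio3, the deiodinase that inactivates thyroid hormone, read 4.32, 4.53, 4.50 and 4.46 on the cortex cKO arrays, against 4.73, 4.96, 4.52 and 4.66 on the control arrays. All 8 values lay below the background guide of 5.29. The change was -0.27 (SE 0.11, limma adjusted p = 0.361).

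At the Peg3 domain, Peg3, which encodes a large zinc finger protein, read 9.83, 10.19, 10.21 and 9.92 on the cortex cKO arrays, against 9.87, 9.73, 9.82 and 9.97 on the control arrays (0.19, SE 0.10, limma adjusted p = 0.560). The 2 cKO arrays above every control were those with Y-linked signal, and without the other 2 the change was 0.35 (SE 0.10, adjusted p = 0.305). Usp29, a ubiquitin protease gene that shares the Peg3 promoter, stood at 0.01 (SE 0.09).

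Grb10, an adaptor protein that dampens insulin receptor signalling and is expressed from the paternal copy in neurons and the maternal copy elsewhere, read 9.07, 9.11, 9.23 and 9.13 on the cortex cKO arrays, against 9.04, 8.85, 8.89 and 8.99 on the control arrays. The groups did not overlap, as was the case for 4 of the 32 genes (Plagl1, Grb10, Gnas and Bcl2l1) and for 8.4% of all probe sets. The change of Grb10 was 0.19 (SE 0.07, limma adjusted p = 0.358). Ddc, its neighbour, which encodes an enzyme of dopamine and serotonin synthesis, stood at -0.02 (SE 0.16). Cobl, an actin nucleator gene on the other side of Grb10 that is imprinted in some mouse tissues, rose. It read 8.89, 9.02, 9.13 and 9.10 on the cKO arrays, against 8.72, 8.62, 8.59 and 8.58 on the control arrays (0.41, SE 0.07, limma adjusted p = 0.0261). With Y-linked signal as a covariate Cobl was no longer called (0.44, SE 0.09, adjusted p = 0.0755).

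**Figure D3:**
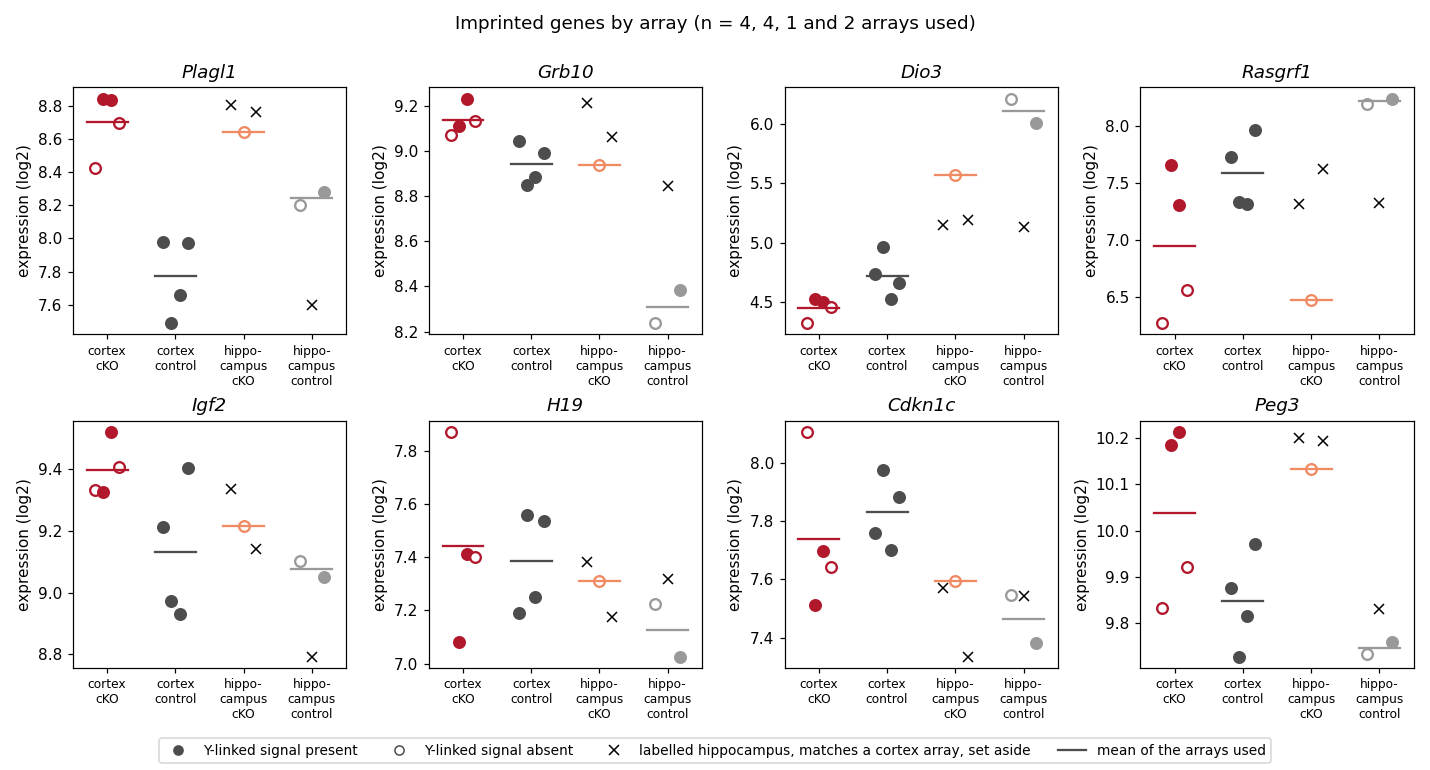
Expression level (log2, y axis) of 8 imprinted genes on each array by group (x axis); lines are means of the arrays used, open circles are arrays without Y-linked signal, and crosses are the 3 arrays labelled hippocampus that were set aside. Plagl1 separates cKO from control cortex, and Rasgrf1 is lowest, between 6.27 and 6.57, on the 3 cKO arrays without Y-linked signal.

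The genes of the Prader-Willi/Angelman region differed little. Ndn, a neuronal growth regulator of the MAGE family, averaged 11.77 ± 0.07 in cKO and 11.82 ± 0.14 in control cortex (SD, n = 4 each), and its relative Magel2 averaged 6.54 ± 0.22 and 6.76 ± 0.09. The changes were -0.05 (SE 0.08) and -0.21 (SE 0.12). Mkrn3, a ubiquitin ligase gene linked to the timing of puberty, stood at -0.04 (SE 0.07), and Ube3a, the maternally expressed ubiquitin ligase gene of Angelman syndrome, at 0.10 (SE 0.11). The intervals of all 4 genes lay within 1.5-fold in both directions.

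Rasgrf1, a neuronal exchange factor for Ras whose control region binds CTCF in mouse, spread most among the cortex cKO arrays. It read 6.27, 7.66, 7.31 and 6.57 on cKO 1 to 4, against 7.72, 7.34, 7.32 and 7.97 on the control arrays. The arrays cKO 1 and 4, which lack Y-linked signal, lay below every control array, cKO 2 lay inside the control range, and cKO 3 lay at its lower edge. The change was -0.64 (SE 0.30, limma adjusted p = 0.471), and it was -0.10 (SE 0.23) without the arrays that lack Y-linked signal. Between the cKO arrays with and without that signal the mean of Rasgrf1 differed by 1.06, a gap that 1.41% of all probe sets reached. No control cortex array lacks the signal, and hippocampus control 1, which does, read 8.20. With Y-linked signal as a covariate, taken to act alike in every group, the Rasgrf1 change in cortex was -0.27 (SE 0.26, limma adjusted p = 0.807). The part of Y-linked signal in the Rasgrf1 change was not tested beyond these values.

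Impact, a translation regulator gene, read 9.41, 9.96, 9.82 and 9.43 on the cortex cKO arrays, against 9.40, 9.08, 9.26 and 9.61 on the control arrays (0.32, SE 0.16, limma adjusted p = 0.496). Again cKO 2 and 3 were the higher arrays. Bcl2l1, the apoptosis inhibitor Bcl-x, averaged 7.33 ± 0.07 in cKO and 7.46 ± 0.04 in control cortex (change -0.13, SE 0.06, limma adjusted p = 0.471). Mcts2, a retrogene, ranged from 6.80 to 7.63 on the cKO arrays and from 7.31 to 7.42 on the control arrays (-0.08, SE 0.24).

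At Peg10-Sgce, the sarcoglycan gene Sgce stood at -0.18 (SE 0.11) and Ppp1r9a, which encodes the actin-binding protein neurabin, at -0.11 (SE 0.07). Gnas, the stimulatory G protein subunit gene, had the narrowest interval of the set, 0.08 with a 95% interval of -0.05 to 0.20. Commd1 (-0.09), the amino acid transporter gene Slc38a4 (-0.07), Trappc9 (0.01) and the phosphatase gene Inpp5f (0.04) had standard errors of 0.06 to 0.12. None of these 7 genes was called.

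In hippocampus none of the 32 genes was called, where limma called 0.00429% of all probe sets. At an unadjusted p under 0.05 there were 3 of the 32 (all probe sets 6.21%), Grb10, Rasgrf1 and Dio3. Tests without moderation called no probe set at all, so their lack of calls among the 32 says nothing about these genes. Grb10 read 8.94 on the cKO array, against 8.24 and 8.39 on the control arrays (0.63, SE 0.13, limma adjusted p = 0.265). Rasgrf1 read 6.48 on the cKO array, against 8.20 and 8.24 on the control arrays (-1.74, SE 0.51, limma adjusted p = 0.514). The cKO array and control 1, which read 8.20, lack Y-linked signal. With that signal as a covariate the Rasgrf1 change was -1.38 (SE 0.41), and the part of that signal was not tested beyond these values. Dio3 read 5.57 on the cKO array, against 6.21 and 6.01 on the control arrays (-0.54, SE 0.18, limma adjusted p = 0.607).

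Plagl1 read 8.64 on the hippocampal cKO array, against 8.20 and 8.28 on the control arrays (0.40, SE 0.24, limma adjusted p = 0.910). With all 14 arrays as labelled it was 0.71 (SE 0.19, adjusted p = 0.190), a value to which the 3 arrays matching cortex contribute. Peg3 read 10.13 on the cKO array, against 9.73 and 9.76 (0.39, SE 0.18), and Igf2 9.22, against 9.10 and 9.05 (0.14, SE 0.19). The lone cKO array lay outside the range of the controls for 23 of the 32 genes, against 67.3% of all probe sets.

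The test of whether the change differed between hippocampus and cortex called none of the 32 genes and 0.00857% of all probe sets. At an unadjusted p under 0.05 the difference was found for 1 of the 32 genes, Grb10 (3.13%, against 5.26% of all probe sets). Tests without moderation called none of the 32 and 1 of all probe sets, too few to speak about these genes. The difference for Grb10, change in hippocampus minus change in cortex, was 0.43 (SE 0.15, limma adjusted p = 0.845), and that for Plagl1 was -0.53 (SE 0.28, limma adjusted p = 0.973). The single cKO array of hippocampus limits this test.

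In controls, 5 of the 32 imprinted genes differed between hippocampus and cortex, where 12.5% of all probe sets were called. Dio3 and Dlk1 were higher in hippocampus (6.2% of all probe sets), and Grb10, Ppp1r9a and Bcl2l1 were lower (6.29%). These shares, 2 and 3 of 32, are near the background. Of all probe sets called here 49.6% were higher in hippocampus, and 30.8% with the arrays centred on their medians, where Dlk1 was not called and Usp29 was called lower. The matching pairs, which hold nearly the same values under a hippocampus and a cortex label, showed shifts of their own between the labels. These shifts were given for each gene as the array labelled hippocampus minus its matching cortex array, averaged over 3 pairs. For Dio3 the shift was 0.61, 0.65 and 0.66 in the 3 pairs.

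Dio3 read 6.21 and 6.01 in control hippocampus, against 4.73, 4.96, 4.52 and 4.66 in control cortex (difference 1.39, SE 0.13, limma adjusted p = 0.000434). With the shift subtracted the difference was 0.75 (adjusted p = 0.0129). Grb10 read 8.24 and 8.39 in control hippocampus, against 9.04, 8.85, 8.89 and 8.99 in control cortex (-0.63, SE 0.09, limma adjusted p = 0.00399), and its shift was -0.04. Bcl2l1 read 7.07 and 7.12 in control hippocampus, against 7.44, 7.51, 7.42 and 7.48 in control cortex (-0.37, SE 0.08, limma adjusted p = 0.0174), with a shift of 0.09. The calls of these 3 genes remained with the shift subtracted, where 4.82% of all probe sets were called. With all 14 arrays the calls of Grb10 (adjusted p = 0.0776) and Bcl2l1 (0.247) ended. Without hippocampus control 1 the adjusted p was 0.0527 for Grb10 and 0.135 for Bcl2l1, and without hippocampus control 3 it was 0.0603 for Bcl2l1.

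Dlk1 read 6.88 and 6.73 in control hippocampus, against 5.95, 6.34, 6.32 and 6.28 in control cortex (0.58, SE 0.13, limma adjusted p = 0.0219). Less a shift of 0.17 it was 0.42 and no longer called (adjusted p = 0.111). Ppp1r9a differed by -0.41 (SE 0.09, limma adjusted p = 0.0196), and by -0.36 with the shift subtracted (adjusted p = 0.0513). Gnas, Slc22a18 and Ascl2 stood at 0.21, 0.37 and 0.42 as deposited, uncalled, with shifts of 0.23, 0.32 and 0.39. With the shift subtracted these became -0.02, 0.05 and 0.03. Plagl1 read 8.20 and 8.28 in control hippocampus, against 7.49 to 7.98 in control cortex (0.47, SE 0.17, limma adjusted p = 0.105), with a shift of -0.06, and among the alternative settings run it was called only with the quantile normalization repeated. Without hippocampus control 1, Dio3 alone was called. Choroid plexus markers averaged 5.92 and 6.85 in control hippocampus, against 5.06 to 5.25 in control cortex. Of 9 measured, 6 were called higher, against 6.2% of all probe sets. Other lists differed as well. Called higher were 3 of 8 astrocyte genes (median of the 8 0.50, all probe sets 0.02) and 3 of 11 interneuron genes. Of 8 excitatory neuron genes 2 were called higher and 1 lower. The part of these cell types in the differences of the imprinted genes was not tested.

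**Figure D4:**
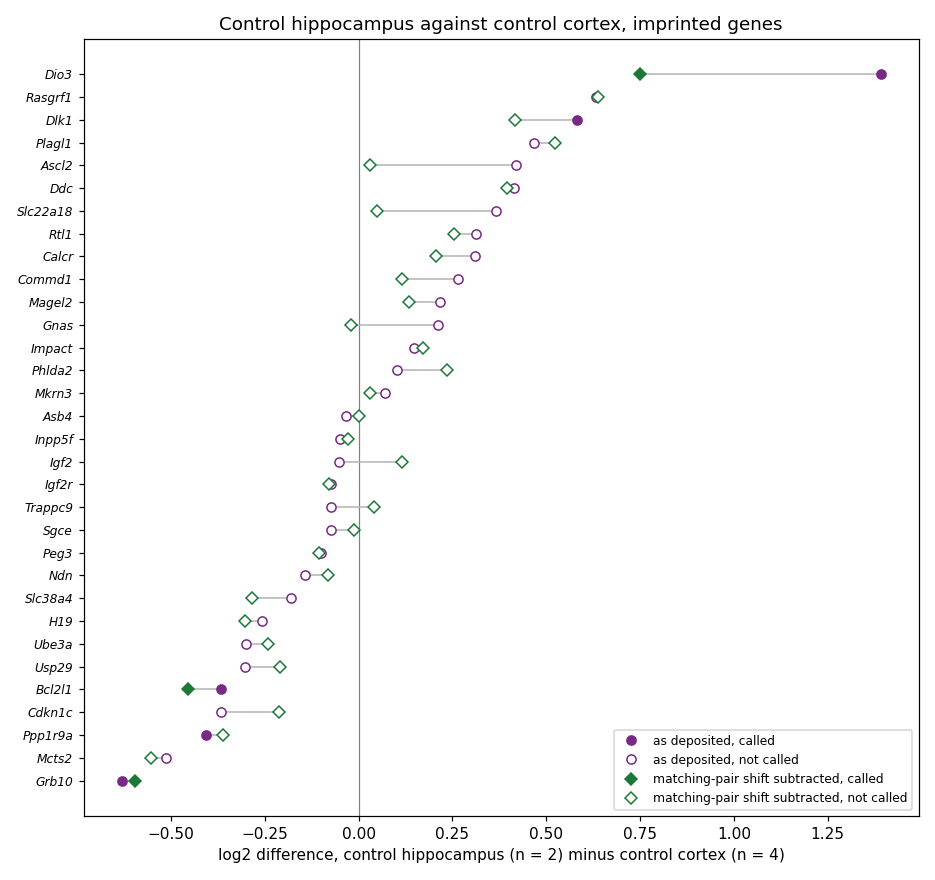
Log2 difference between control hippocampus and control cortex (x axis) for the 32 imprinted genes, as deposited (circles) and less the mean shift within the 3 matching pairs (diamonds); filled symbols are called. Dio3 stands at 1.39 as deposited and 0.75 less the shift, and Grb10 at -0.63 and -0.59.

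A second list held 51 further genes reported as imprinted in mouse, of which 34 were measured. In cortex 1 of the 34 was called higher, Cobl (0.591% of all probe sets), and 1 lower, Htr2a (1.36%). Their median change was -0.0048 (all probe sets -0.02), with 15 positive and 19 negative. Htr2a, a serotonin receptor gene with imprinting described in some mouse tissues, read 7.06, 7.50, 7.49 and 7.27 on the cortex cKO arrays, against 8.69, 8.45, 8.48 and 8.81 on the control arrays. It fell in cKO by 2.42-fold (log2 change -1.28, SE 0.12, limma adjusted p = 0.00121), and without the arrays that lack Y-linked signal the change was -1.11 (adjusted p = 0.0536). Sfmbt2, a Polycomb-related gene, stood at 0.42 (SE 0.12, limma adjusted p = 0.184).

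Factors that establish or maintain imprints, such as DNA methyltransferases and zinc finger proteins of methylated control regions, were measured for 24 of 28 genes. None was called in cortex, and the median change was -0.06 (all probe sets -0.02), with 6 positive and 18 negative. None was called in hippocampus, where 21 changes were positive and 3 negative, with a median of 0.13 (all probe sets 0.06). Between control regions 1 was called higher and 6 lower in hippocampus, against 6.2% and 6.29% of all probe sets. In cortex they included the DNA methyltransferase gene Dnmt3a at 0.14 (SE 0.10), the dioxygenase gene Tet2 at -0.20 (SE 0.09) and the histone demethylase gene Kdm1b at -0.16 (SE 0.10). Their mean level lay between 8.13 and 8.32 on the cKO arrays and between 8.23 and 8.34 on the control arrays of cortex.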

How the data were processed

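RNA was hybridized to exon arrays. The authors deposited log2 expression values per probe set, made with Affymetrix Expression Console, RMA and Partek 6.4 on mm9, per the submitters' processing notes. The sources used here do not say which arrays were normalized together. No filter was set on these values. Gene names came from the platform annotation, and neighbours and promoters from RefSeq (GRCm38.p6).

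Group means were estimated from 11 arrays in limma (version 3.58.1, under R 4.3.3), followed by empirical Bayes moderation. Adjusted p-values are Benjamini-Hochberg values over all 23332 probe sets. SE is the moderated standard error. The procedure was tested on simulated data for the cortex comparison only, with independent normal values. That test did not cover the hippocampus comparison, the difference of the changes or the control regions. The number of arrays limits the precision.

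Any listed gene could be named. Outside the list the rule allowed Ctcf, Neurod6, Neurod2, Prox1, Rorb, Eif2s3y, Kdm5d, the 3 genes of smallest p in each marker list, and 3 neighbours on each side of a called gene. Bcl11b and Fezf2 fall under the excitatory neuron list. The genes, lists and arrays set aside were chosen with earlier results of these data known. Subtracting the matching-pair shift was chosen after the arrays had been compared, and its error does not enter SE or p.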

Additional observations from a re-analysis of the deposited data

Results flagged for a closer look

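Within the 4 arrays of a cortex group, 4 values stood apart from their group by Dixon's criterion of gap over range, in 64 groups examined, where chance gives about 1 in 20. Dlk1 was lowest on cortex control 1, at 5.95, where the next value was 6.28. Mkrn3 was highest on cortex cKO 4, at 8.20 (next 8.05), and Ppp1r9a was highest on cortex cKO 2, at 8.75 (next 8.62). Inpp5f was lowest on cortex control 4, at 8.51 (next 8.62).

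Gnas lay above every control on all cortex cKO arrays and below both controls on the hippocampal cKO array, with a difference of the changes of -0.14 (hippocampus minus cortex, SE 0.11). By this pattern alone the difference was not tested, and limma's test of it gave an adjusted p of 0.973. The hippocampal change of Gnas was -0.06 (SE 0.10). Of all probe sets, 8.4% had cortex groups that did not overlap. For 67.3% the lone hippocampal cKO array lay outside the range of its controls. On the arrays set aside, Plagl1 read 8.80 on the array labelled hippocampus cKO 1 and 8.76 on hippocampus cKO 3, against 7.60 on hippocampus control 2. These arrays match cortex cKO 3, cortex cKO 2 and cortex control 3, so the values are no independent measurement.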

How the results depend on the processing

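The 1 imprinted gene called in cortex became 0 with the replicate block (118 probe sets called in all, against 455; Plagl1 0.93, adjusted p = 0.108) and 0 with the cortex arrays that hold Y-linked signal (56 probe sets in all). It stayed at 1 in every other setting, with 1 in each fit leaving out an array. In hippocampus and for the difference between regions the count was 0 in every setting that could be fitted. The count of 5 genes called between control regions became 2 with all 14 arrays, namely Dio3 and Slc22a18, which is not among the 5. It became 3 with Y-linked signal as a covariate, 1 with the replicate block and 2 at a fold of 1.5. With the matching-pair shift subtracted it was 3. It rose to 6 with repeated quantile normalization, and to 6 with probe sets at or below the olfactory receptor median left out. Leaving out single cortex arrays kept it at 5. It fell without either hippocampus control array, where 1 is left in that group. Over all probe sets the cortex count was 282 with the covariate and 273 to 455 leaving out single arrays (277 without control 3, 290 without control 4, 273 without cKO 2, 276 without cKO 4), and 287 at a fold of 1.5. The cortex probe sets called higher numbered 138, and 231 with arrays centred on their medians, 226 with repeated quantile normalization and 249 with array weights. The control region count was 2913, and 635 with all 14 arrays, 1772 with the covariate, 402 with the block, 1502 at a fold of 1.5, 1124 with the shift subtracted and 597 to 2913 leaving out single arrays (597 without hippocampus control 1, 1544 without hippocampus control 3, 1907 without cortex control 3). The hippocampus count was 1, and 78 with all 14 arrays, 30 with repeated quantile normalization, 9 with arrays centred on their medians, 8 with a trended robust prior and otherwise 0 to 4. Same-numbered cortex arrays did not deviate together (correlations -0.06 to 0.05, highest with the own number for 1 of 4), so the numbers were not taken as pairs. No named gene reversed a call, and Ctcf in cortex stayed between -1.46 and -1.39 leaving out single arrays. Averaging a gene's probe sets was not run, since each measured gene had 1. Without hippocampus cKO 2 no hippocampal change can be fitted. Levels near background limit Phlda2, Asb4, Calcr and, in cortex, Dio3 and Ascl2.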
